A study of Mus musculus with 4 samples.

Results

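A group of 10 genes of the proximal T cell receptor pathway was described in the mouse cell lines TS1 and TS2. They are Ptprc, Fyn, Zap70, Lat, Grap2, Lcp2, Clnk, Rasgrp1, Prkcq and Sla. They were listed by name as genes of the pathway, with earlier results of these data known. Each had 1 probe set on the array whose annotation gave that gene alone. The 10 genes were thus 10 of 19938 genes with such a probe set. Both lines derive from CD4+ T lymphocytes, received no treatment and were grown in Iscove-Dulbecco's medium with murine interleukin-9, a T cell growth factor. Each line gave 2 RNA samples, labelled A and B and called biological duplicates, and each sample was hybridised to 1 Affymetrix gene array. Each group is therefore 1 cell line, and its duplicates do not show how T cell lines vary. The labels do not say whether the duplicates were separate cultures, so p-values measure the spread between these arrays, which may be technical.

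When a T cell receptor binds its ligand, Src family kinases phosphorylate the cytoplasmic tails of the CD3 chains, and ZAP-70 docks on the phosphorylated tails. CD45 keeps the Src kinases ready by removing an inhibitory phosphate. ZAP-70 then phosphorylates the membrane adaptor LAT and the cytosolic adaptor SLP-76, which GADS holds together. Phospholipase C-gamma bound to this complex makes diacylglycerol, which recruits the Ras activator RasGRP1 and the kinase PKC-theta, while SLAP lowers the amount of receptor at the surface.

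Of the 10 genes, 8 passed the test: 5 with more signal in TS2 and 3 with more signal in TS1. The genes higher in TS2 were the phosphatase gene Ptprc, the kinase gene Zap70, the adaptor genes Clnk and Sla, and the exchange factor gene Rasgrp1. The genes higher in TS1 were the adaptor genes Lat and Grap2 and the kinase gene Prkcq. Lcp2 and Fyn did not pass. The test was limma's moderated test with Benjamini-Hochberg adjustment over all 19938 genes, and a gene passed at an adjusted p under 0.05. By the same rule 13.5% of all genes passed, 5.05% as higher in TS2 and 8.45% as higher in TS1. This base includes dim genes, which are seldom called. With the dimmest 50% of genes left out, 2880 of 9969 genes passed. For 8 of the 10 genes all arrays of one line lay above all arrays of the other, as they did for 58.4% of all genes. Since the 10 genes were listed with earlier results of these data known, their counts describe them and are no evidence about the pathway as a whole. Their median absolute difference was 2.16 on the log2 scale, against 0.163 over all genes.

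The values are log2 of background-corrected and normalized intensities. Values of a line are given for array A and then for array B. A difference is the TS2 mean less the TS1 mean of these log2 values, with n = 2 arrays for each line; SE is its standard error. With 2 arrays per line, the smallest p of a two-sided exact permutation test is 0.333. To judge whether a dim value was above background, 1194 odorant and pheromone receptor genes served as a reference, since lymphocytes are not known to need them. The 95th percentile of these genes was 5.61 and 5.70 in TS1, and 5.84 and 5.75 in TS2. A gene at or under this reference on both arrays of a line is described as not above the reference, and its difference is given as a lower bound against it. Levels of different genes are not compared, because each probe set has its own brightness. The RNA is of whole cultures, so fewer cells with a transcript and less transcript per cell cannot be told apart.

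**Figure D1:**
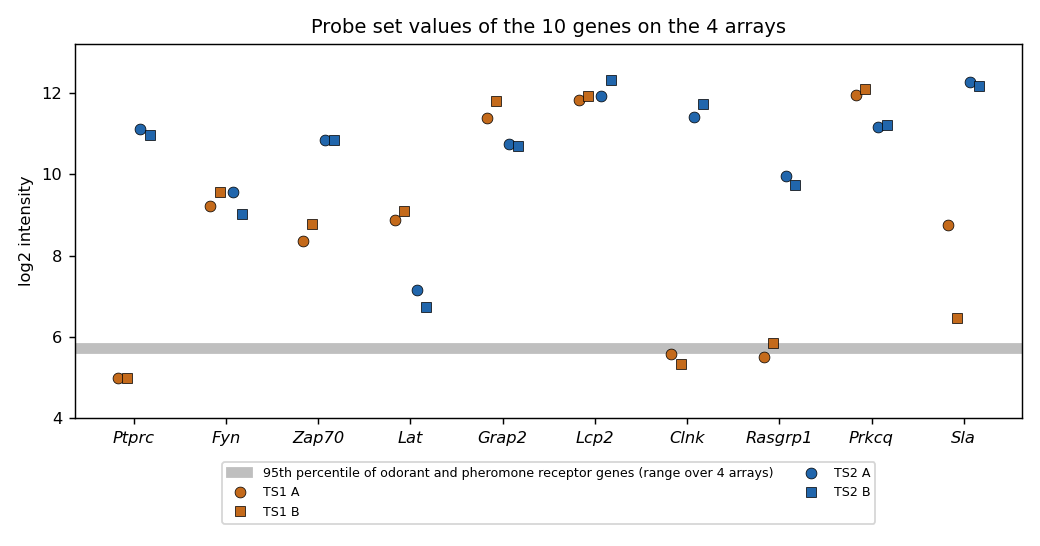
Log2 intensity of each gene's probe set on the 4 arrays, with circles for duplicate A and squares for duplicate B. The grey band spans the reference of 5.61 to 5.84; Ptprc and Clnk lie at its lower edge or under it in TS1 and far above it in TS2, and the TS1 arrays of Sla lie at 8.75 and 6.47.

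Several features of the arrays and cells touch these results. Of 11 measured T cell markers, 5 lay above the reference on both arrays in each line, namely Cd3e, Cd3g, Cd247, Cd5 and Thy1. In TS1, only Cd3g on array A was also above the 99th percentile of the receptor genes. In TS2, Cd3e, Cd3g and Cd247 were above that percentile on both arrays, and Cd5 and Thy1 were under it. Cd4 was not above it in either line, with 5.36 to 5.38 in TS1 and 5.15 to 5.28 in TS2, and neither were Cd2 and Cd3d. The summed intensity of the T cell list was 1936 and 529 in TS1 and 9204 and 10916 in TS2. Such a sum rests on the brightest probe sets, here Cd3g on TS1 A (10.52) and Cd3e in TS2 (12.74 and 12.53). Of the 11 T cell markers, 2 were called as higher in TS2 and 9 were not called, and their median difference was 0.27. Some markers of other cells lay above the reference as well. Of 7 mast cell markers, Fcer1a, a chain of the IgE receptor, lay at 12.7 to 12.9 in TS1 and 13.0 to 13.1 in TS2, whereas Ms4a2 and Tpsb2 were not above the reference on any array. Kit, the stem cell factor receptor, was the 1 mast cell marker that passed. It lay at 7.20 and 7.40 in TS1, against 5.48 and 5.32 in TS2 (difference -1.90, adjusted p = 0.00153 by limma). As Kit was not above the reference in TS2, it was at least 2.84-fold higher in TS1. The protease gene Cpa3 lay at 9.13 and 8.995 in TS1 and at 8.91 and 7.95 in TS2, and Mcpt4 at 5.45 and 5.33 in TS1 and at 6.60 and 10.10 in TS2. Cma1, another protease gene, lay at 5.49 and 4.73 in TS1 and at 5.35 and 8.61 in TS2. The summed intensity of the mast cell list was 7478 to 8519 in TS1 and 8933 to 10512 in TS2, with Fcer1a the largest value on every array. Of 6 natural killer cell markers, Ncr1 and Nkg7 were higher in TS2 and Eomes in TS1. Ncr1 was not above the reference in TS1 and was above it on 1 TS2 array alone, with a bound of 1.27-fold. The summed intensity of this list was 1082 to 1312 in TS1 and 2107 to 2159 in TS2. Of 4 erythroid and megakaryocyte markers, Epor, Klf1 and Itga2b were higher in TS1, with a sum of 596 to 607 in TS1 and 254 to 257 in TS2. Of 5 B cell and 5 fibroblast markers, Ebf1 and Pdgfra passed as higher in TS1. The other 4 of each list did not pass. Of these, Col1a1, Col1a2 and Col3a1 were above the reference on every array, with differences of 0.13, 0.11 and 0.14. Cd79b (difference 0.23) and Pax5 (difference -0.25) were above it on every array as well. The 6 monocyte and macrophage markers did not pass, and Mpo alone of them was above the reference on every array. Ebf1 lay at 5.64 and 5.85 in TS1 and was not above the reference in TS2. Against the reference it was not higher in TS1 (0.97-fold). The part of such markers in the differences below was not tested.

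The RefSeq table of mouse build GRCm38.p6 held promoters of 9 of the 10 genes, all but Sla. Those of Ptprc, Clnk and Rasgrp1 are shown because, of the 9, these genes differed most between the lines, and that of Lat because it had the largest difference towards TS1. The 250 bases before the outermost annotated start are printed 5′ to 3′ on the gene's strand. Ptprc lies at chr1:138175306-138175555, Clnk at chr5:38876694-38876943, Rasgrp1 at chr2:117342878-117343127 and Lat at chr7:126369569-126369818, all on the minus strand. Capitals mark matches, on either strand, to any of 5 short motifs that are spelled out after the sequences. Positions are those of the first marked base, counted back from the start. Which start the lines use was not measured.
Ptprc: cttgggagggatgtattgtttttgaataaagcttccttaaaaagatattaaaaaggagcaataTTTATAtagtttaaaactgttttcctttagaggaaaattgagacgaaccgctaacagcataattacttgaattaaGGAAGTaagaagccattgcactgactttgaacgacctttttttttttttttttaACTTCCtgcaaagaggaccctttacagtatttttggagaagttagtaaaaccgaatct
Clnk: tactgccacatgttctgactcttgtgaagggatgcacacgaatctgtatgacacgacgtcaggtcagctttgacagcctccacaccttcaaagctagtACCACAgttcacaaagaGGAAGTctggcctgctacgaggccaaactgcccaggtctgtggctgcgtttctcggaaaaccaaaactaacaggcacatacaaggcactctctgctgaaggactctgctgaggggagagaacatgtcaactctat
Rasgrp1: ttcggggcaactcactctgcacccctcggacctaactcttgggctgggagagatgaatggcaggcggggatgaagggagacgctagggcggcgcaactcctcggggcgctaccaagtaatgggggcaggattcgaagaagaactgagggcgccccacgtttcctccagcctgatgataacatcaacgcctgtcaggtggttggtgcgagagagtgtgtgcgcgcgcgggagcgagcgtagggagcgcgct
Lat: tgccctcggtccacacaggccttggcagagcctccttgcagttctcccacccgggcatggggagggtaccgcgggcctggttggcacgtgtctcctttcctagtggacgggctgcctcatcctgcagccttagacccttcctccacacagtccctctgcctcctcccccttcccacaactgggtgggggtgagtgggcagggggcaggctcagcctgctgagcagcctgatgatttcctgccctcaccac

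GGAAGT, the core bound by ETS factors such as PU.1 and ETS1, was found at -112 and, on the opposite strand, at -58 of Ptprc and at -135 of Clnk. It was found in no other promoter of the 9, and 19.9% of 27025 promoters of the same length held it. TGTGGT, a RUNX-type motif held by 14.2% of promoters, was found on the opposite strand at -152 of Clnk. AGATAA, bound by zinc finger factors such as Gata3 and held by 10.2%, and CAGCTG, an E-box held by 12.7%, were found in Lcp2 and in none of the other 8. TATAAA, held by 13.0%, was found on the opposite strand at -187 of Ptprc. None of the 5 motifs was found in Rasgrp1 or Lat, or in the promoters of Grap2, Zap70, Fyn and Prkcq. The Ptprc window was 31.6% G and C with 4 CpG dinucleotides, and that of Rasgrp1 62.4% with 21, against medians of 52.0% and 6 over all promoters. A match of letters is a description and shows no bound factor.

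Ptprc was among the genes that separated the lines most. It encodes CD45, the transmembrane phosphatase of nucleated blood cells. Its log2 intensity was 5.001 and 4.994 in TS1, and 11.11 and 10.96 in TS2. Both TS1 arrays were under the reference and both TS2 arrays far above it. The difference was 6.04 (SE 0.097, 95% interval 5.79 to 6.29, adjusted p = 9.39e-05 by limma), which ranked 9 of 19938 genes by size. Measured against the reference, Ptprc was at least 41.6-fold higher in TS2, or at least 23.4-fold with the 99th percentile of the receptor genes as the reference.

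The kinases behaved unlike each other. Zap70 encodes the kinase that binds the phosphorylated CD3 chains. It lay at 8.36 on TS1 A and 8.77 on TS1 B, and at 10.85 and 10.83 on the TS2 arrays, so that it was above the reference everywhere and higher on both TS2 arrays. The difference was 2.27 (SE 0.15, adjusted p = 0.00195 by limma), or 4.83-fold. Fyn encodes a Src family kinase that phosphorylates the receptor's tails. Its values were 9.22 and 9.57 in TS1, and 9.57 and 9.01 in TS2. The ranges of the lines overlapped, and the difference of -0.11 had a 95% interval of -0.68 to 0.47 (adjusted p = 0.815 by limma). Its sign turned when TS1 B or TS2 B was left out, at 0.074 and 0.17. The difference of Zap70 lies outside that interval.

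Of the adaptors that assemble around LAT, Lat and Grap2 were higher in TS1 and Lcp2 did not pass. Lat encodes the membrane scaffold that ZAP-70 phosphorylates. It lay at 8.88 on TS1 A and 9.10 on TS1 B, and at 7.15 on TS2 A and 6.72 on TS2 B. All 4 arrays were above the reference, and both TS1 arrays were above both TS2 arrays. The difference was -2.05 (SE 0.17, adjusted p = 0.00353 by limma), so Lat was 4.15-fold higher in TS1. Grap2 encodes GADS, which links LAT to SLP-76. Its values were 11.39 and 11.79 in TS1, and 10.75 and 10.68 in TS2. Both TS1 arrays were higher, by a smaller margin than for Lat. The difference was -0.87 (SE 0.16, adjusted p = 0.0276 by limma), or 1.83-fold higher in TS1. The call of Grap2 was lost if TS2 A (adjusted p = 0.115) or TS2 B (adjusted p = 0.128) was left out and with the duplicate letter as a replicate block (adjusted p = 0.0567). Its adjusted p ran from 0.0138 to 0.244 over all alternatives.

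Lcp2 encodes SLP-76, the adaptor that GADS carries to LAT. It was bright on every array, with 11.81 and 11.93 in TS1, and 11.93 and 12.30 in TS2. The lines met at the same value on TS1 B and TS2 A. The difference was 0.25 with a 95% interval of -0.14 to 0.63 (adjusted p = 0.360 by limma).

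Clnk, a relative of SLP-76 and BLNK that is known from cytokine-stimulated blood cells and mast cells, was far higher in TS2. Its values were 5.59 and 5.33 in TS1, and 11.40 and 11.73 in TS2. As with Ptprc, neither TS1 array was above the reference. The difference was 6.11 (SE 0.16, 95% interval 5.70 to 6.52, adjusted p = 0.000214 by limma), which ranked 7 of 19938 genes by size. Against the reference Clnk was at least 60.1-fold higher in TS2, or at least 33.9-fold with the 99th percentile. The B cell relative Blnk was not above the reference on any array, at 4.80 to 4.88. Of the adaptor family, TS1 thus had Lcp2 above the reference, and TS2 had Lcp2 and Clnk.

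The genes that read the diacylglycerol signal differed in opposite directions. Rasgrp1 encodes an exchange factor that activates Ras. It lay at 5.51 and 5.86 in TS1, and 9.95 and 9.73 in TS2. TS1 A was under the reference and TS1 B just above it. The difference was 4.15 (SE 0.155, adjusted p = 0.000405 by limma), or 17.8-fold. With the 99th percentile as the reference both TS1 arrays were under it, and Rasgrp1 was at least 10.3-fold higher in TS2. Of its relatives, Rasgrp2 lay at 5.58 and 6.48 in TS1 and at 5.15 and 5.34 in TS2, above the reference on TS1 B alone (difference -0.79, adjusted p = 0.164 by limma). Rasgrp3 was not above the reference in either line. Rasgrp4, a RasGRP of mast cells, was above it in both lines, at 8.65 to 9.12 in TS1 and 9.29 to 9.71 in TS2 (difference 0.61, adjusted p = 0.142 by limma).

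Prkcq encodes PKC-theta, the kinase that connects the receptor to NF-kappa-B. Its values were 11.95 and 12.08 in TS1, and 11.15 and 11.21 in TS2. It was bright in both lines and higher on both TS1 arrays. The difference was -0.83 (SE 0.096, adjusted p = 0.00882 by limma), or 1.78-fold higher in TS1. The call was lost if TS2 A (adjusted p = 0.0612) or TS2 B (adjusted p = 0.0524) was left out, and over all alternatives the adjusted p ran from 0.00291 to 0.151. The related Prkcd was also higher in TS1 (difference -0.46, adjusted p = 0.0431 by limma), a call lost whichever array was left out (adjusted p 0.0628 to 0.217).

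Sla, the adaptor gene whose product SLAP dampens receptor signalling, was higher in TS2, but its TS1 duplicates lay far apart. The TS1 arrays had 8.75 on A and 6.47 on B, while the TS2 arrays had 12.26 and 12.18. Both TS2 arrays were above both TS1 arrays. The difference was 4.60 (SE 0.73, 95% interval 2.74 to 6.47, adjusted p = 0.0203 by limma), or 24.3-fold. It was 5.74 without TS1 A and 3.46 without TS1 B. The call was lost if TS2 A (adjusted p = 0.0906) or TS2 B (adjusted p = 0.0845) was left out and when the prior variance was made robust (adjusted p = 0.0629), within a range of 0.00129 to 0.252 over all alternatives. Its relative Sla2 also differed between the TS1 duplicates, with 10.13 on A and 8.77 on B against 8.43 and 8.14 in TS2, and did not pass (adjusted p = 0.164 by limma).

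**Figure D2:**
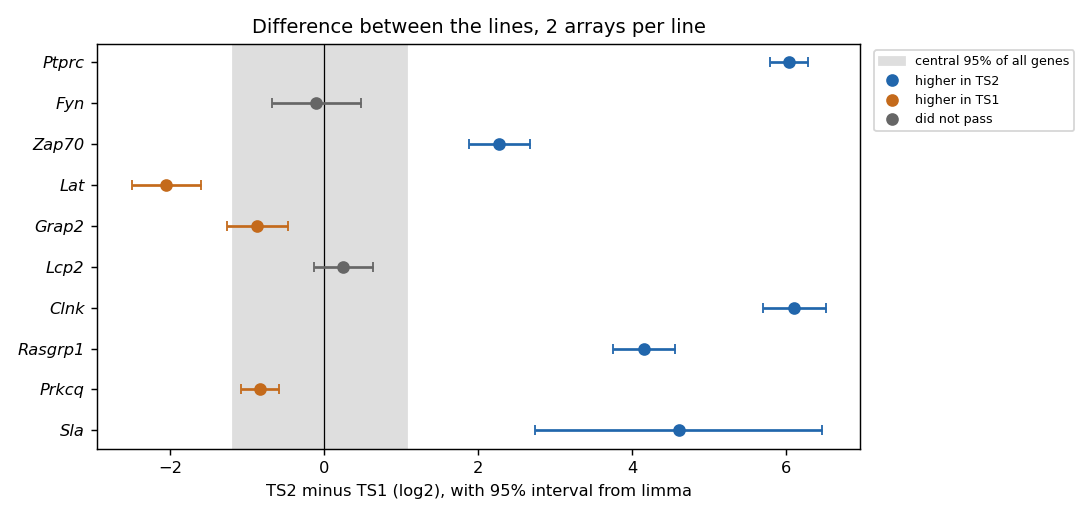
TS2 minus TS1 for each gene on the log2 scale, with limma's 95% interval and n = 2 arrays per line; the grey band holds the central 95% of all genes, from -1.19 to 1.08. Ptprc, Clnk, Sla, Rasgrp1, Zap70 and Lat lie outside the band, and Sla has the widest interval, from 2.74 to 6.47.

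The spread between duplicates set how firmly each difference was measured. In TS1 the B minus A difference was -2.28 for Sla and between -0.27 and 0.41 for the other 9 genes. In TS2 it lay between -0.56, for Fyn, and 0.38, for Lcp2. Over all genes the SD of B minus A was 0.283 in TS1 and 0.250 in TS2. The 7 genes above 0 in TS1 and the 3 above 0 in TS2 do not give a common direction. Sla ranked 18 among all genes by its excess on TS1 A over TS1 B.

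**Figure D3:**
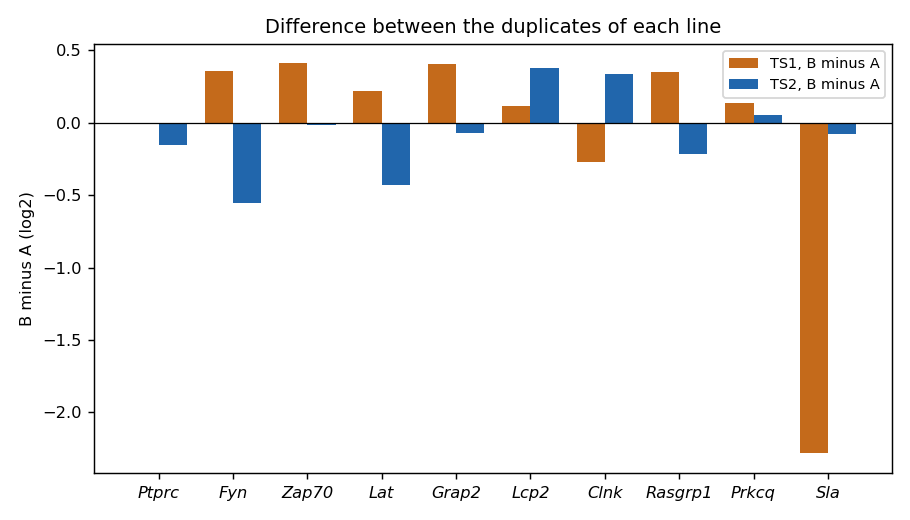
B minus A on the log2 scale within TS1 and within TS2 for each gene. The TS1 bar of Sla reaches -2.28, and the largest of the other bars is that of Fyn in TS2, at -0.56.

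The moderated test mattered for every call. The same linear model without shared variances called 0 of the 10 genes, with adjusted p from 0.0961 for Ptprc to 0.252 for Sla among the 8, and 6 of the 10 had an unadjusted p under 0.05. Of the 8 calls, those of Ptprc, Zap70, Lat, Clnk and Rasgrp1 were kept whichever single array was left out.

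Other genes of the pathway were counted from lists made by role. Of 84 measured genes, 22 passed, 11 in each direction, and 62 did not. That is 26.2% called, against 13.5% of all genes, and the median difference was -0.031, against 0.013 over all genes. The 2 shares have unlike bases, since dim genes are seldom called. Of 19938 genes, 6653 were above the reference on no array, against 12 of the 84. With the dimmest 50% of genes left out, 2880 of 9969 genes were called. The lists were made with earlier results of these data known, so the 22 calls describe these genes only. The count fell to 12 without TS2 A and to 11 without TS2 B.

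Of 8 receptor chains and co-receptors, 2 were higher in TS2 and 6 did not pass. Cd3e, whose product is part of every CD3 complex, lay at 6.45 and 6.41 in TS1 and at 12.74 and 12.53 in TS2 (difference 6.21, adjusted p = 9.39e-05 by limma). Cd247, which encodes the zeta chain that ZAP-70 binds, differed by 2.83 (SE 0.10, adjusted p = 0.000401 by limma), in the same direction as Zap70. Cd3g did not pass, with 10.52 and 6.07 in TS1, and 10.39 and 11.98 in TS2. Like Sla, its TS1 B value was far under its TS1 A value.

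Of 7 kinases and kinase subunits, 1 was higher in TS2 and 2 were higher in TS1. Txk, a Tec family kinase of T cells, differed by 3.53 (SE 0.21, adjusted p = 0.00144 by limma), while its relative Tec differed by -0.78 (adjusted p = 0.0173). Tec did not pass if TS1 A (adjusted p = 0.0555) or TS1 B (adjusted p = 0.0624) was left out or without TS2 B (adjusted p = 0.0791). Pik3cd, a catalytic subunit of phosphatidylinositol 3-kinase, differed by -1.26 (adjusted p = 0.00666 by limma). Syk, the relative of Zap70, was not above the reference on any array, with 5.23 to 5.37. Zap70 was thus the member of its kinase family that was measured above the reference.

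Of 18 other adaptors, 3 were higher in TS2 and 2 in TS1. Sh2d2a, which encodes the T cell-specific adaptor TSAd, differed by 3.57 (SE 0.24, adjusted p = 0.00197 by limma), and Shc1 by 0.60. The TS1 values of Sh2d2a, 6.03 and 6.20, were above the reference but under the 99th percentile of the receptor genes. Shb, an SH2-domain adaptor, differed by -1.49 (SE 0.090, adjusted p = 0.00143 by limma) and Gab3 by -0.51. Shc1 lost its call without TS1 B (adjusted p = 0.0785), TS2 A (0.147) or TS2 B (0.107), and Gab3 whichever array was left out (adjusted p 0.0671 to 0.197). The direction of each was kept. Grb2 (difference -0.35, adjusted p = 0.213) and Grap (difference -0.71, adjusted p = 0.406), the relatives of Grap2, did not pass. Grap lay at 8.04 on TS1 A and at 6.54 to 6.60 on the other 3 arrays, and it was called without TS1 B (difference -1.47, adjusted p = 0.00813). Themis, Trat1 and Skap1, adaptors of T cells, were not above the reference on any array.

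Of 16 effectors, 2 were higher in TS2 and 2 in TS1. Plcg1, the phospholipase (difference -0.23, adjusted p = 0.195), and Vav1, a Rac exchange factor (difference -0.15, adjusted p = 0.461), did not pass and were above the reference on every array. Stim1, the calcium sensor of the endoplasmic reticulum, differed by 1.18 (SE 0.11, adjusted p = 0.00435 by limma) and Nras by 0.50 (adjusted p = 0.0312), the latter a call lost whichever array was left out (adjusted p 0.0611 to 0.170). Malt1, a protease downstream of PKC-theta, was higher in TS1 as Prkcq was (difference -1.40, adjusted p = 0.0206 by limma), a call lost if TS1 A (adjusted p = 0.0653) or TS1 B (adjusted p = 0.0802) was left out. Vav3 differed by -1.15 (adjusted p = 0.0109) and was not above the reference in TS2, so that it was at least 1.16-fold higher in TS1. It lost its call if TS2 A (adjusted p = 0.0527) or TS2 B (adjusted p = 0.0612) was left out.

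Of 23 negative regulators, 6 passed, 3 in each direction, and 17 did not. Pag1, which anchors the inhibitory kinase CSK at the membrane, differed by 1.64 (SE 0.16, adjusted p = 0.00534 by limma). Ubash3a, a phosphatase-like protein of T cells, differed by 2.35 (SE 0.47, adjusted p = 0.0358) and Ptpn6, the phosphatase SHP-1, by 1.21 (adjusted p = 0.0314). Rasa3, a Ras GTPase activator that opposes RasGRP1, differed by -1.17 (adjusted p = 0.0449). The call of Ubash3a was lost without TS1 A (0.102 as its adjusted p), TS1 B (0.0582) or TS2 A (0.102). Ptpn6 was not called without TS1 A (adjusted p = 0.101), without TS1 B (0.0784) or without TS2 B (0.0685), and Rasa3 without the same arrays (adjusted p = 0.120, 0.137 and 0.0515). Of the 16 measured relatives of the 10 genes, 0 were higher in TS2 by limma (1 at an unadjusted p under 0.05). Src and Prkcd were higher in TS1. Src was not called without TS1 A (adjusted p = 0.0743), TS2 A (0.184) or TS2 B (0.147), and Prkcd whichever array was left out. Syk, Grb2, Grap and Sla2 stand on more than 1 list.

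**Figure D4:**
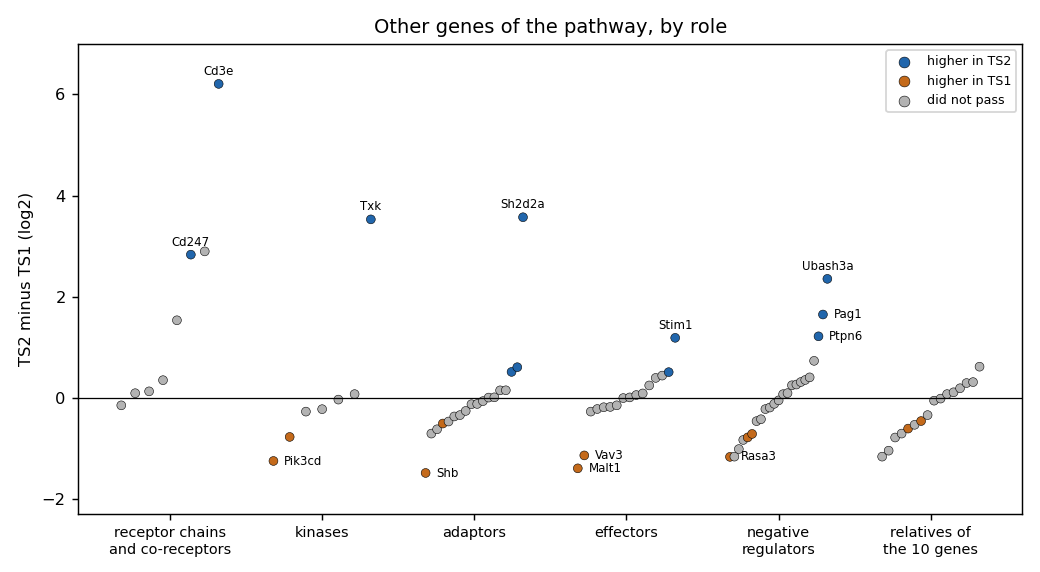
TS2 minus TS1 on the log2 scale for the other genes of the pathway, 1 point per gene and list, with genes called by limma in colour. Called genes lie on both sides of 0 among kinases, adaptors, effectors and negative regulators, and the largest difference is that of Cd3e, at 6.21.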

How the data were processed

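Total RNA of TS1 and TS2, 2 duplicates (A and B) per line, was labelled with biotin and hybridised to Affymetrix mouse gene arrays. RMA and the Expression Console software of Affymetrix are named, without versions, per the submitters' processing notes. The deposited intensity values are linear, from 5.98 to 23157, and log2 of them was taken with no pseudocount. RMA sets the arrays to a common distribution, so a shift shared by most genes is not seen. Of 35556 probe sets, 21789 had 1 gene symbol, 1621 several and 12146 none. Symbols were updated by Entrez number, and the brightest probe set stood for each of 19938 genes. The fit used limma 3.58.1 (lmFit and eBayes) under R 4.3.3, and files were read by data.table (version 1.17.8). It had line as the factor, 2 residual degrees of freedom and a prior of 3.03, across all genes.

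The fit was tested on simulated data with 200 of 19938 genes changed, in 20 simulations. It recovered 62.5% of genes changed by 1 and 94.4% of those changed by 2 on the log2 scale, with a mean of 7.85 false calls. In the data 2691 genes were called, a larger share than was changed in the simulations. Recovery and false calls depend on that share, so these values need not hold for the data.

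The members and all lists were chosen with earlier results of these data known. Named genes are the 10 members, Cd3e and 9 fixed pathway genes, 2 of which are not analysed here, and up to 4 called genes of each list with the largest differences. Other genes were named after their values were seen, as were the promoter motifs and neighbouring genes chosen. Of 92 listed pathway genes, 84 were analysed. Detection calls and scan batches were not analysed here. The number of arrays limits the precision.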

Additional observations from a re-analysis of the deposited data

How the results depend on the processing

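With single arrays left out, 5 to 8 of the 10 genes were called, against 8 with all arrays. The count over all genes then ran from 979 to 2198, against 2691, and that of the other pathway genes from 11 to 17, against 22. Such a fit has fewer residual degrees of freedom, and a line left with 1 array is assumed to vary like the other. With the duplicate letter as a replicate block, 7 of the 10 genes, 1666 of all genes and 14 other pathway genes were called. Among the 10 genes that block changed no call but that of Grap2. The letter is not known to mark a shared day or culture, and the B minus A differences of the lines correlated at -0.029 across genes. At an adjusted p under 0.01, 6 of the 10 genes, 807 of all genes and 8 other pathway genes were called. Without moderated variances limma's model called 0 in each of these sets, with 4156 of all genes at an unadjusted p under 0.05. With the median of the receptor genes as the reference, 0 of the 10 genes were under it in a line, against 2 with the 95th and 3 with the 99th percentile. Under the other alternatives, which were an intensity trend or robust prior variance, median centring, renewed quantile normalization, removal of the dimmest 30% or 50% of genes, averaged probe sets and 16 added before log2, 7 or 8 of the 10 genes were called. Centring and quantile normalization each ended the calls of Gab3, Rasa3 and Src, and quantile normalization also that of Prkcd. The robust prior variance ended those of Sla and Ubash3a, and 16 added before log2 ended that of Rasa3. Among the 10 genes and the named pathway genes, no called gene changed direction under these alternatives. Marker and neighbouring genes were not refitted.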

Other observations

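The duplicates of TS1 were compared over all genes because those of Sla lay far apart. On TS1 A 145 genes were at least 2-fold higher than on TS1 B, and 76 were at least 2-fold lower. At least a 4-fold excess on TS1 A was reached by 24 genes. Besides Sla these include genes of varied function, such as Ephx2, an epoxide hydrolase gene, with 8.14 and 4.89, and Bmpr1a, a receptor of bone morphogenetic proteins, with 9.95 and 7.07. They also include Cd3g, with 10.52 on TS1 A and 6.07 on TS1 B, and Tnfrsf9, the co-stimulatory receptor 4-1BB, with 12.77 and 9.41. Il2ra, the alpha chain of the interleukin-2 receptor, lay at 7.74 on TS1 A and 4.89 on TS1 B. Foxp3, the factor of regulatory T cells, lay at 9.25 and 6.92, against 8.07 and 7.27 in TS2. These genes were chosen after their values were seen, and with 1 array each the difference between the duplicates was not tested.

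The genes next to the 10 members on the chromosome were read as well. Order was taken from the RefSeq table of GRCm38.p6, with the 2 nearest measured protein-coding genes on each side. Of 40 such neighbours, 6 were higher in TS2 and 3 were higher in TS1, by limma over all genes, where 5.05% and 8.45% of all genes were. The neighbours of Ptprc did not pass, and those at its sides, Nr5a2 (4.91 to 5.17 over the arrays) and Atp6v1g3 (4.69 to 4.94), were not above the reference. Next to Clnk, Zfp518b differed by 0.50 (adjusted p = 0.0329) and Hs3st1 by -0.079 (adjusted p = 0.816). Near Sla, Ndrg1, a stress-responsive gene, differed by 2.05 (adjusted p = 0.00165) and Phf20l1 by 0.61 (adjusted p = 0.0219). Tg, which encodes thyroglobulin and overlaps Sla, differed by 0.62 (adjusted p = 0.0826). The neighbours of Prkcq moved in both directions. Sfmbt2, a Polycomb group gene, differed by -3.38 (adjusted p = 0.00312), Pfkfb3, a regulator of glycolysis, by -1.25 (adjusted p = 0.00194) and Itih5 by 2.44 (adjusted p = 0.00325). Sfmbt2 was not above the reference in TS2, at 5.31 and 5.19, and no bound against the reference is given for it. These neighbours were named after their values were seen.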
